A study of Mus musculus with 6 samples.

Results

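The genes described here were 10 transcription factors of the epithelial-mesenchymal transition: Snai1, Snai2, Zeb1, Zeb2, Twist1, Twist2, Prrx1, Foxc1, Foxc2 and Ets1. They were taken by name from the array, with every probe that carries one of these gene names, which gave 17 of 61307 probes and 10 of 50090 gene names. Snai1, Snai2, Zeb1, Twist1, Twist2, Foxc1 and Foxc2 had 1 probe each, Zeb2 and Ets1 had 3 each and Prrx1 had 4. The probes were measured in NIH3T3 cells, an immortalized line of mouse embryo fibroblasts, on 6 one-colour microarrays. The GFP group, the control, expressed green fluorescent protein alone. The LT7 and ST7 groups are both labelled as overexpressing SIRT7, a nucleolar NAD-dependent deacetylase, as a fusion with GFP; LT7 were the large, spindle-shaped cells and ST7 the small cells that grew in aggregates. LT7 and ST7 were each expanded from single cell clones picked out of confluent dishes of transduced cells, so that a clone and its phenotype cannot be told apart. Each group had 2 replicates, and the p-values measure the spread between these few arrays.

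In epithelial-mesenchymal transition, polarised cells lose their junctions and take up the gene program of motile, matrix-producing cells. Snail, Zeb and Twist proteins drive this program. Snail and Zeb proteins are zinc finger repressors that bind E-box sequences in the promoters of junction genes, E-cadherin first among them, and Twist proteins bind E-boxes as helix-loop-helix dimers. Prrx1 is a paired-type homeobox factor of mesenchyme, Foxc1 and Foxc2 are forkhead factors of mesodermal tissues, and Ets1 is an Ets-family activator of matrix protease and invasion genes. Fibroblasts are mesenchymal cells and commonly express such factors.

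Some facts of the arrays bear on every value below. The 75th percentile of the processed signal lay between 317 and 384 on the GFP and LT7 arrays but at 16.3 and 17.1 on the ST7 arrays, and the share of probes that the scanner software marked as well above background fell from 47.4% or more on the former to at most 26.4% on the latter. The authors' scaling, a subtraction of each array's 75th percentile on the log2 scale, therefore moved the median change of all probes between ST7 and GFP to 3.72, where it was -0.68 without scaling. A log2 change of 3.72 after the shift is thus the change of the median probe. Both probes for Sirt7 itself, the overexpressed gene, gave between 2142 and 3125 on the GFP arrays and between 2341 and 3633 on the LT7 arrays, but were not well above background on the arrays labelled ST7, with signals of 2.85 to 3.28. The overexpression on the ST7 label was thus not seen at these probes, and the signal found on the GFP arrays was lost. ST7 below means the 2 arrays labelled so. By immunoblot, the paper reports no significant difference in the SIRT7 fusion protein between LT7 and ST7 cells. Before scaling, the LT7 signals of Sirt7 overlapped those of GFP. After the shift both LT7 arrays lay above both GFP arrays at each probe, with a log2 change of 0.29. The median probe changed by 0.17, and by -0.023 without dim probes, those well above background on both arrays of no group. No large rise of Sirt7 was thus seen in LT7. Whether these probes read the introduced SIRT7 is not given in the sources used here. The defining markers of fibroblasts were well above background for 9 of 9 genes on both GFP and both LT7 arrays and for 3 of 9 on both ST7 arrays. Their summed signal was 314321 to 344567 in GFP and LT7 and 15025 to 16554 in ST7. Their part in the results for ST7 was not tested.

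The letters of the probes are given where probes of 1 gene gave different answers, as for Zeb2, Prrx1 and Ets1. Whether the sequence bears on these differences was not tested. Each probe is 60 bases long and is written 5′ to 3′ as the scanner output gives it. Prrx1 P209771, P209778 and P483713 and Ets1 P232830 are shown whole and the others by their first 30 bases, a choice made by hand. Capitals mark a stop codon near the 3′ end of Prrx1 P209771, in a reading frame that is open up to it. All 3 Zeb2 probes were designed against transcript NM_015753. Of the Prrx1 probes, P209778 and P483713 are listed for NM_001025570 as well as for NM_011127 and NM_175686, and P209771 and P335587 for NM_011127 and NM_175686 alone.
Zeb2 P596008: ctgtattttcgactgaaaattccactttct
Zeb2 P121206: acgaggaagacaatatggaagatggcatgg
Zeb2 P526372: tacgtgggggaaaatatatgtgaaagcaat
Prrx1 P209771: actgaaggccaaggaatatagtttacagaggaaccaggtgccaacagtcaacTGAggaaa
Prrx1 P209778: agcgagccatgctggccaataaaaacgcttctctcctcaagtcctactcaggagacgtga
Prrx1 P483713: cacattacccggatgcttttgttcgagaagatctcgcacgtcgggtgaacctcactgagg
Prrx1 P335587: aaagtctatatcatctgacttatcatgaga
Ets1 P194250: gttggggtctatataaacctgttgaactct
Ets1 P232830: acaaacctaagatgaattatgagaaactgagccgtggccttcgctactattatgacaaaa
Ets1 P258291: acttagtgttagttacggggcggtaagtct

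In the control fibroblasts all 10 factors were detected: 17 of 17 probes were well above background on both GFP arrays, against 52.4% of all probes. In LT7 16 of 17 probes were well above background on both arrays, against 44.2% of all probes, and the exception was Zeb2 P526372. In ST7 3 of 17 were, against 22.7% of all probes. These were Zeb2 P596008, Prrx1 P209771 and Ets1 P232830, 1 probe for each of the genes with several probes. Of the 16 probes well above background on all GFP and LT7 arrays, a state shared by 43.9% of all probes, 10 were so on neither ST7 array and 3 on both, where the shares over all such probes were 53.1% and 41.2%, so that the count lost was close to the background of these arrays. For the same 16 probes the signal before scaling was lower on both ST7 arrays than on either GFP array in all 16, against 87.1% of all such probes. The ST7 signal stayed above 50% of the GFP signal for 1 of the 16, Zeb2 P596008, against 19.7%.

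**Figure D1:**
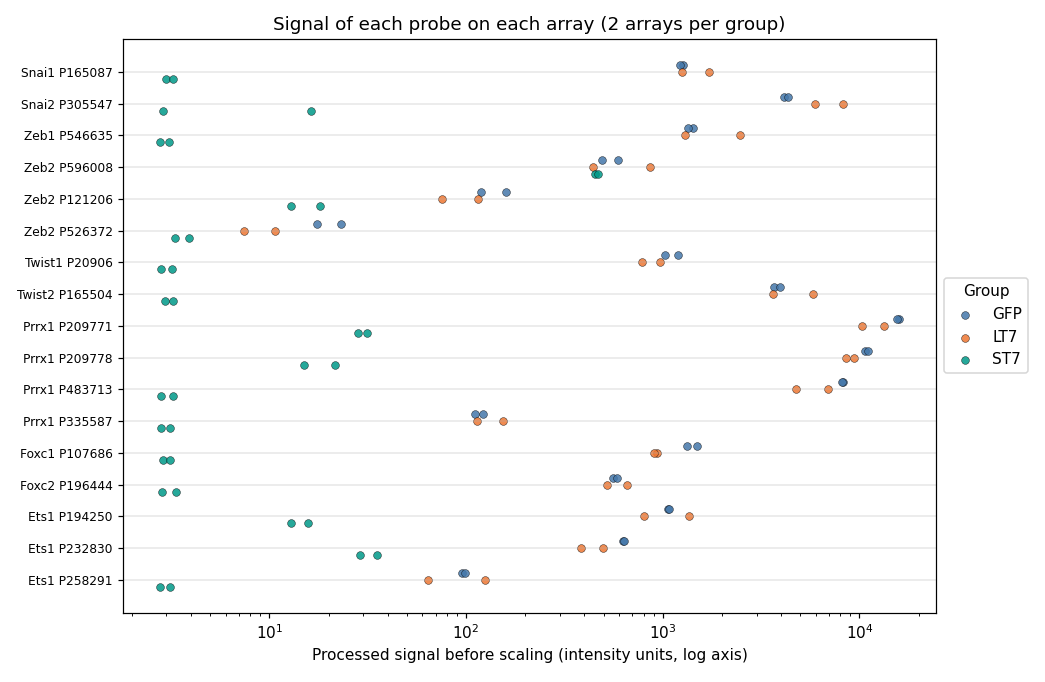
Processed signal before scaling (x axis, intensity units, log scale) of each of the 17 probes (y axis) on each array; each point is 1 array and each colour a group of 2 arrays. GFP and LT7 lie close together for every probe, and the ST7 points lie to the left of the GFP points for every probe, nearest for Zeb2 P596008.

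No member passed the test across all probes between LT7 and GFP. The limma fit called 0 of 17 member probes at an adjusted p of 0.05, against 0.176% of all probes. An unadjusted p under 0.05 was found for 2 of 17, against 27.2% of all probes. That share takes in the dim probes. In the limma fit without them, 3426 of 33296 probes had an unadjusted p under 0.05. The log2 changes ran from -1.08 for Zeb2 P526372 to 0.82 for Snai2. The median probe of the array changed by 0.17, and by -0.023 without dim probes. The study's criterion asks for a fold change of 0.8 in the replicates and of more than 1 in their geometric mean; read here as log2 ratios, 0 probes were higher and 1 was lower, against 2.9% and 3.02% of all probes. The replicates of LT7 differed by a median of 0.47 on the log2 scale over the member probes, against 0.27 for GFP and 0.28 for all probes in LT7. LT7 replicate 1 was read alone in a second scan, and its spike-in RNAs, which are added at known amounts, had a mean log2 signal of 12.87 where the other arrays had 8.47 to 8.76. With that array left out, so that all arrays came from 1 scan, the member changes ran from -1.28 to 0.63, and 0 were called by limma, in a fit where the lone LT7 array is assumed to vary like the other groups.

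Of the Snail factors, Snai2 (Slug) had LT7 and GFP signals that separated before scaling and Snai1 did not. Its signal in arbitrary intensity units was 4125 and 4341 in GFP and 8218 and 5916 in LT7. Both LT7 arrays were above both GFP arrays, and the change of 0.82 (SE 0.79) had an adjusted p of 0.60 in limma. The SE of this probe was the largest of the 17, since the shared fit also takes in its 2 ST7 arrays, of 2.88 and 16.4. Snai1 (Snail) gave 1264 and 1219 in GFP and 1726 and 1255 in LT7, so that the groups overlapped before scaling; after the shift the LT7 arrays were above the GFP arrays, by 0.34 (SE 0.22, adjusted p = 0.42 in limma). Zeb1, the zinc finger homeobox repressor of E-cadherin and of the miR-200 family, gave 1426 and 1347 in GFP and 2470 and 1294 in LT7. Its groups overlapped on both scales, and the change was 0.47 (SE 0.32, adjusted p = 0.45 in limma). For Snail, Slug and Zeb1 the paper reports, by RT-PCR and immunoblot, a stepwise decline over GFP, LT7 and ST7 cells. On these arrays the LT7 changes of Snai1, Snai2 and Zeb1 were positive after the shift, and none was called.

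Zeb2, the close relative of Zeb1, gave no common answer in LT7 over its probes. P596008 gave 493 and 592 in GFP and 858 and 443 in LT7, with overlapping groups and a log2 change of 0.29 (SE 0.36, adjusted p = 0.70 in limma). P121206 gave 159 and 119 in GFP and 75.6 and 116 in LT7, a change of -0.46 (SE 0.32, adjusted p = 0.45 in limma). P526372 gave 23.2 and 17.5 in GFP and 10.7 and 7.48 in LT7, where it was not well above background, and was the member probe that met the study's criterion. Its change was -1.08 (SE 0.24), with an unadjusted p of 0.0054 and an adjusted p of 0.10 in limma. With normexp background correction it was 0.04.

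Neither helix-loop-helix factor passed the test in LT7. Twist1 gave 1193 and 1028 in GFP and 781 and 971 in LT7, with both LT7 arrays below both GFP arrays and a log2 change of -0.25 (SE 0.23, adjusted p = 0.58 in limma). Twist2 gave 3697 and 3941 in GFP and 5798 and 3634 in LT7, with overlapping groups. Its change was 0.36 (SE 0.28, adjusted p = 0.50 in limma).

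None of the homeobox, forkhead and Ets factors passed the test in LT7. Prrx1 P209771 gave 15872 and 15546 in GFP and 10268 and 13286 in LT7, and P209778 and P483713 were likewise lower before scaling on both LT7 arrays than on both GFP arrays; after the shift the groups of all 4 Prrx1 probes overlapped, with changes of -0.41 to 0.28. Foxc1 gave 1487 and 1322 in GFP and 932 and 903 in LT7. Both LT7 arrays were below both GFP arrays on either scale, with a log2 change of -0.51 (SE 0.19), an unadjusted p of 0.040 and an adjusted p of 0.16 in limma. Foxc2 gave 559.5 and 588 in GFP and 656 and 518 in LT7, with a change of 0.12 (SE 0.23, adjusted p = 0.81 in limma). For Ets1 the change was 0.07, -0.44 and -0.03 at P194250, P232830 and P258291, and the groups separated for P232830 alone, at 629.7 and 639 in GFP against 384 and 495 in LT7. Over the 17 probes, LT7 lay wholly above GFP before scaling for 1 and wholly below for 8, where 33.1% and 20.8% of all probes did so. After the shift these counts were 2 and 5, against 38.0% and 15.0%. These shares take in the dim probes and were not taken for bright probes alone, so they do not set the members against like probes. The median change of all probes after the shift was 0.17, and -0.023 without dim probes.

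**Figure D2:**
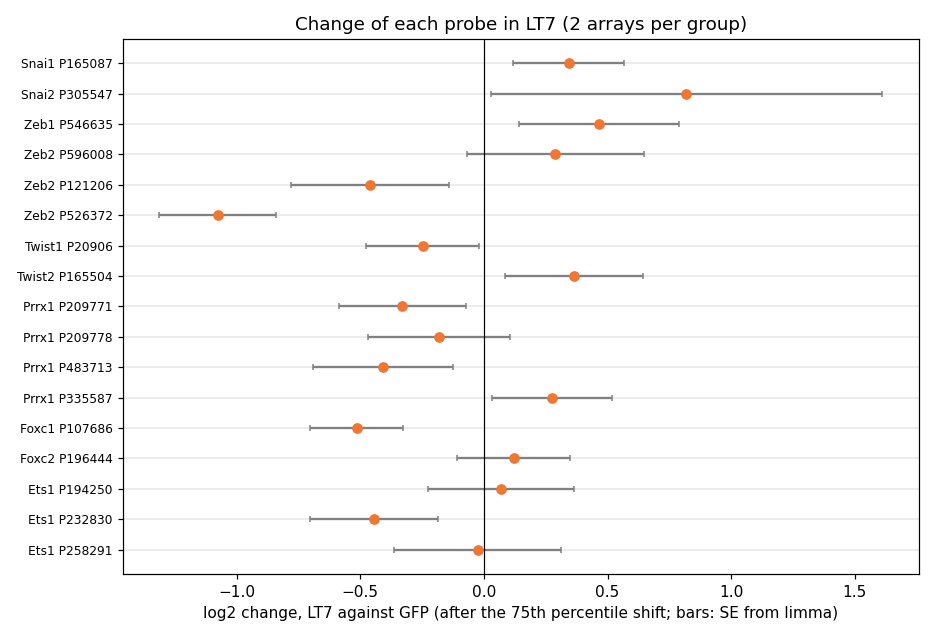
log2 change of LT7 against GFP after the 75th percentile shift (x axis) for each of the 17 probes (y axis), with bars of 1 SE from limma, 2 arrays per group. The changes lie between -1.08 and 0.82, and none passed an adjusted p of 0.05 in limma. Scaled on spike-in RNAs instead, all 17 were negative, from -3.29 to -1.40, but the median probe of the array was at -2.05. That scaling takes in the far brighter spike-in RNAs of LT7 replicate 1.

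Between ST7 and GFP, 15 of 17 member probes were called by limma, against 90.6% of all probes. After the shift 12 of them were lower, against 19.8% of all probes, and 3 were higher, against 70.7%. Among the probes well above background on all GFP and LT7 arrays, 12 of 16 members were called lower, against 45.0%, and 2 of 16 higher, against 37.8%. The 3 higher ones were all of Zeb2, and all 3 were lower in ST7 than in GFP before scaling, as were all 17 member probes, against 51.2% of all probes. By the study's criterion 11 probes were lower, against 19.1% of all probes, and 3 were higher, against 70.9%. The split rests on the scaling: without scaling limma called 16 members lower and 0 higher, and with the percentile of only those probes that were bright on all 6 arrays 14 lower and 1 higher. The change of 16 of the 17 probes, all but Zeb2 P596008, lay below that of the median probe, a position that no shift by 1 constant per array can alter. With quantile normalization 14 did so, and with normexp background correction all 17. The median probe was itself near background in ST7, at 3.32 and 3.78, so that a probe bright in GFP and at background in ST7 falls below it. In bulk RNA, fewer cells with a transcript and less transcript per cell cannot be told apart.

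**Figure D3:**
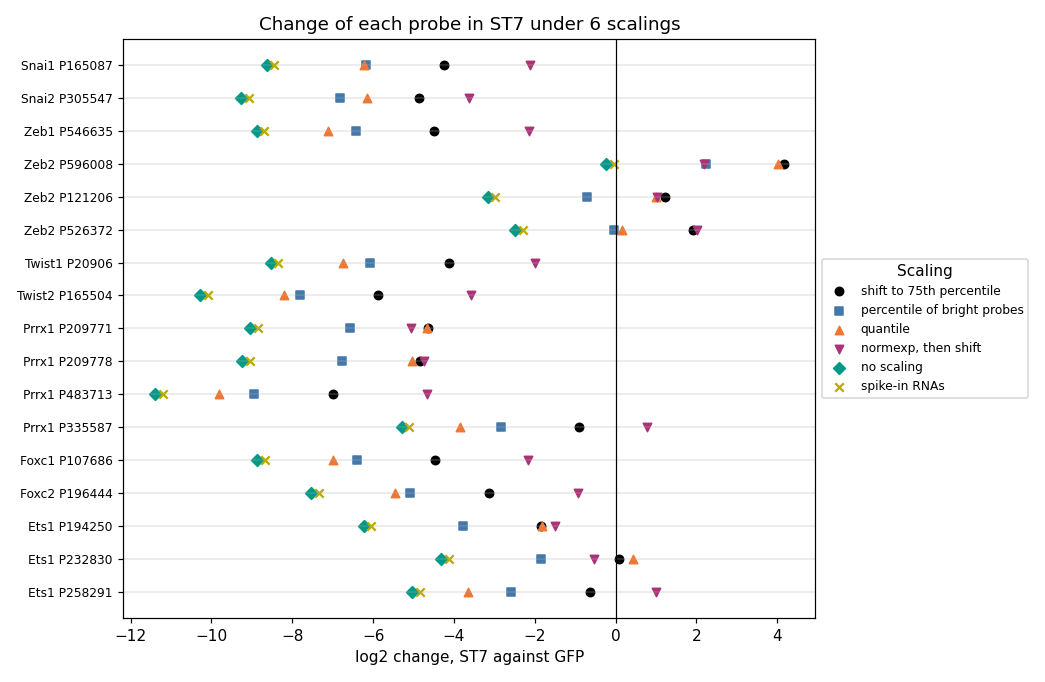
log2 change of ST7 against GFP (x axis) for each of the 17 probes (y axis) under 6 scalings, 1 symbol each. Snai1, Snai2, Zeb1, Twist1, Twist2, Foxc1 and Foxc2 lie below 0 under all 6; all 3 Zeb2 probes are higher under the 75th percentile shift and lower without scaling.

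Snai1, Snai2 and Zeb1 fell in ST7 under every scaling shown. Snai1 gave 3.0 and 3.25 in ST7, not well above background, from 1264 and 1219 in GFP. It was at least 4.0-fold lower (log2 change -4.24, SE 0.22, adjusted p = 2.0e-05 in limma), a bound set against the lowest signal that counted as well above background on each ST7 array and, like every fold below, taken after the shift. Zeb1, at 2.79 and 3.09 in ST7, was at least 4.46-fold lower (log2 change -4.48, SE 0.32, adjusted p = 6.5e-05 in limma). Snai2 was the member whose ST7 arrays differed most, by 2.43 on the log2 scale, where the median over member probes was 0.13. It gave 2.88 on the first array and 16.4, well above background, on the second, and its change was -4.87 (SE 0.79, adjusted p = 0.0019 in limma). Without the second ST7 array the change was -6.09 and without the first it was -3.65.

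Zeb2 stood apart from Snai1, Snai2 and Zeb1 in being called higher after the shift, but before scaling only P596008 stayed near its GFP signal. P596008, well above background on all 6 arrays, gave 452 and 468 in ST7 beside 493 and 592 in GFP and 858 and 443 in LT7. Its ST7 signals were thus below both GFP signals before scaling and within the LT7 range. After the shift it was 18.0-fold higher (log2 change 4.17, SE 0.36, adjusted p = 0.00013 in limma), and without scaling its change was -0.23 with an adjusted p of 0.65. Relative to the median probe the change was 0.45 with either, 3.64 with quantile normalization and -0.041 with normexp background correction. P121206 gave 13.0 and 18.2 in ST7, the second well above background, from 159 and 119 in GFP: 1.23 after the shift, -3.16 without scaling and -2.49 relative to the median probe. P526372 gave 3.32 and 3.89 in ST7, neither well above background, with a change of -1.81 relative to the median probe. The probes of Zeb2, all designed on the same transcript, thus spread over 2.93 log2 units in ST7 against GFP, and over 1.36 in LT7 against GFP.

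Twist1 and Twist2 were both at background in ST7. Twist1 gave 2.80 and 3.19 there and was at least 3.57-fold lower than in GFP (log2 change -4.13, SE 0.23, adjusted p = 2.4e-05 in limma). Twist2 gave 2.94 and 3.24 and was at least 12.3-fold lower (log2 change -5.87, SE 0.28, adjusted p = 1.7e-05 in limma). Foxc1 and Foxc2 were at background as well. Foxc1 was at 2.89 and 3.13 and at least 4.51-fold lower (log2 change -4.47, adjusted p = 1.7e-05 in limma), and Foxc2 was at 2.85 and 3.35 and at least 1.85-fold lower (log2 change -3.14, adjusted p = 6.8e-05 in limma). The bounds follow the brightness in GFP and do not rank the genes by loss.

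Prrx1 fell at P209771, P209778 and P483713 and kept a signal well above background on at least 1 ST7 array at the first 2 of these. P209771, which holds the stop codon in capitals, gave 31.4 and 28.3 in ST7, well above background on both arrays, from 15872 and 15546 in GFP, and was 25.0-fold lower (log2 change -4.64, SE 0.26, adjusted p = 2.3e-05 in limma). P209778 gave 21.7 and 15.02, the first well above background, and fell as well (log2 change -4.83, with 1 of the 2 ST7 values at background, SE 0.29, adjusted p = 3.1e-05 in limma). P483713 gave 2.82 and 3.24 from 8217 and 8133 in GFP and was at least 26.3-fold lower (log2 change -7.00, adjusted p = 1.7e-05 in limma). P335587 was dim in GFP too, at 112 and 122, and gave 2.82 and 3.14 in ST7; its change of -0.89 (adjusted p = 0.016 in limma) was 0.78 with normexp background correction, and no bound can be given.

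Ets1 also differed by probe. P194250 gave 12.8 and 15.7 in ST7, not well above background, from 1059.9 and 1079.6 in GFP, and was at least 3.42-fold lower (log2 change -1.83, SE 0.30, adjusted p = 0.0019 in limma). P232830 gave 28.9 and 35.4, well above background on both ST7 arrays, from 629.7 and 639 in GFP. Its change was 0.09 after the shift (SE 0.26, adjusted p = 0.75 in limma) and -4.31 without scaling. P258291, at 95.2 and 99.1 in GFP, gave 2.79 and 3.13 in ST7, with a change of -0.64 (adjusted p = 0.12 in limma).

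Between ST7 and LT7, 15 of 17 member probes were called by limma, against 90.7% of all probes, 12 lower and 3 higher after the shift, against 19.7% and 71.0% of all probes. Before scaling, 16 of 17 were lower on both ST7 arrays than on both LT7 arrays, against 71.8% of all probes, and the exception was Zeb2 P596008. These shares are over all probes, and shares among the probes bright in GFP and LT7 were not taken for this comparison. In the one with GFP, 45.0% of those bright probes were called lower and 37.8% higher, and 87.1% were lower before scaling. This comparison and the one with GFP share the ST7 arrays.

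Most members shared their pattern over the 6 arrays with a large number of genes. For the brightest probe of Snai1, Zeb1, Twist1, Twist2, Foxc1, Foxc2 and Ets1, 6143 other named genes were well above background on the same arrays, all of GFP and LT7 and none of ST7. For Zeb2 P596008 and Prrx1 P209771, measured on all 6 arrays, there were 3616, and for Snai2, measured on 5, there were 247. For the genes at background in ST7, likeness over the arrays reflects mainly their brightness in GFP and LT7, and none is named. For those measured on all arrays, the genes nearest in pattern, by the root mean square difference of the centred log2 values over 6 arrays, were Ctcf (0.099), Guca1b (0.10) and Ankib1 (0.11) for Zeb2 and Nucb1 (0.16), Ndufb7 (0.19) and Palld (0.20) for Prrx1.

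Of the partners through which these repressors act, 16 were on the array, and all were well above background on both GFP and both LT7 arrays. They include the E proteins that dimerise with Twist, the Id proteins that hold E proteins off DNA, and the corepressors recruited by Snail and Zeb. In LT7 limma called 0 of 16, with 1 at an unadjusted p under 0.05. In ST7 11 of 16 were still well above background on both arrays, against 41.2% of all probes bright in GFP and LT7, and 8 were called higher and 6 lower after the shift, against 37.8% and 45.0% of those probes, with a median change of 0.24. Ctbp2, a corepressor that Zeb proteins bind, gave 2391 and 2375 in GFP and 4658 and 4183 in ST7, higher before scaling too, while its relative Ctbp1 gave 7383 and 5966 in GFP and 2.89 and 3.21 in ST7, at least 21.4-fold lower (adjusted p = 1.7e-05 in limma). Id2 gave 2312 and 2936 in GFP and 4152 and 4314 in ST7. Id4, in contrast, gave 1320 and 1624 in GFP and 2.82 and 3.22 in ST7. Among the other factors of the transition, 15 were on the array, and 12 of these were well above background in both GFP replicates where 3 were in both ST7 replicates, with 6 called higher and 9 lower after the shift, against 70.7% and 19.8% of all probes, and a median change of -2.38. Of the 6, 3 (Snai3, Gsc and Tead1) were well above background on no GFP or ST7 array. Prrx2, the relative of Prrx1, gave 18396 and 18989 in GFP and 14.3 and 5.86 in ST7, at least 59.4-fold lower (adjusted p = 9.9e-05 in limma). Of 10 genes that set the turnover of Snail proteins, 9 were well above background in GFP and 4 in ST7, against 52.4% and 22.7% of all probes, with 4 called higher and 4 lower after the shift, against 70.7% and 19.8%. Of these 10 genes 9, and of the 15 other factors 11, were bright in GFP and LT7. Of all probes bright there, 37.8% were called higher and 45.0% lower, and 41.2% stayed well above background on both ST7 arrays. In LT7 limma called 0 of these 10 and 0 of the 15 other factors, with 1 and 2 at an unadjusted p under 0.05. Csnk1e, a casein kinase that phosphorylates Snail, gave 16955 and 16386 in GFP and 57607 and 54041 in ST7.

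The genes that these factors repress were mostly dark in all groups. Of 20 such genes, 3 were well above background on both GFP arrays, 2 on both LT7 arrays and 6 on both ST7 arrays. In LT7 limma called 0, with 8 at an unadjusted p under 0.05, against 27.2% of all probes, dim ones included. Among the 8, Cdh1, Crb3, Cgn, Mal2 and St14 were well above background on no GFP or LT7 array, so their differences are between background values. In ST7 18 were called higher and 1 lower after the shift, against 70.7% and 19.8% of all probes, with a median of 4.61 where that of all probes was 3.72. Among the 18, both ST7 arrays measured 6 well above background, and 9 were so on no GFP or ST7 array. Cdh1, which codes for E-cadherin, was well above background on no array, with signals of 2.96 to 5.04. The paper, in contrast, reports E-cadherin in ST7 cells by RT-PCR, immunoblot and immunofluorescence, and none in GFP or LT7 cells. Krt18, an epithelial keratin, gave 6.64 and 4.64 in GFP and 20.0 and 25.0 in LT7. On the ST7 arrays it reached 1881 and 1755 before any scaling (adjusted p = 1.7e-05 in limma). Dsp (desmoplakin), at 3.40 and 3.26 in GFP and 178 and 104 in ST7, and Epcam, at 5.38 and 3.03 in GFP and 86.7 and 94.0 in ST7, were well above background in ST7 alone. Krt8, the usual partner of Krt18, went from 123 and 62.2 in GFP to 15.3 and 5.82 in ST7. The epithelial markers summed to 120 to 212 in GFP and LT7 and to 1924 to 2046 in ST7, of which Krt18 held most. Markers of endothelium were at background on all arrays, and those of macrophages were well above background for 3 of 5 genes in GFP and LT7 and for 0 of 5 in ST7, with Ptprc at 2.78 to 5.15 throughout.

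The 21 genes that rise with the transition were bright in GFP and LT7, with 20 and 19 well above background on both arrays, and 6 in ST7. In LT7 limma called 0, with 6 at an unadjusted p under 0.05. Postn, a matrix protein of fibroblasts, gave 11618 and 9110.2 in GFP and 29137 and 26732 in LT7 (log2 change 1.54, adjusted p = 0.097 in limma). In ST7 18 were called lower and 3 higher after the shift, against 19.8% and 70.7% of all probes and against 45.0% and 37.8% of the probes bright in GFP and LT7, with a median of -5.19. Sparc gave 35577 and 30318 in GFP and 8.20 and 3.21 in ST7, and Mmp14, the membrane-bound collagenase, gave 17887 and 16405 in GFP and 2.78 and 3.13 in ST7. Vim (vimentin), in contrast, stayed at 14612 and 16192 in ST7 from 58774 and 57619.8 in GFP: 2.48 after the shift, but lower than in GFP before it. Of the 16 factors that oppose the transition 6 were well above background on both GFP arrays and 4 on both ST7 arrays, and in LT7 limma called 0, with 3 at an unadjusted p under 0.05. In ST7 12 were called higher and 1 lower after the shift, against 70.7% and 19.8% of all probes, and among the 12, both ST7 arrays measured 2 well above background, while 7 were so on no GFP or ST7 array. Grhl1 gave 35.5 and 22.8 in GFP and 89.5 and 83.8 in ST7, Foxa2 gave 2.75 and 2.94 in GFP and 37.2 and 30.9 in ST7, and Klf4 went from 8266 and 9293 to 35.9 and 30.9.

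**Figure D4:**
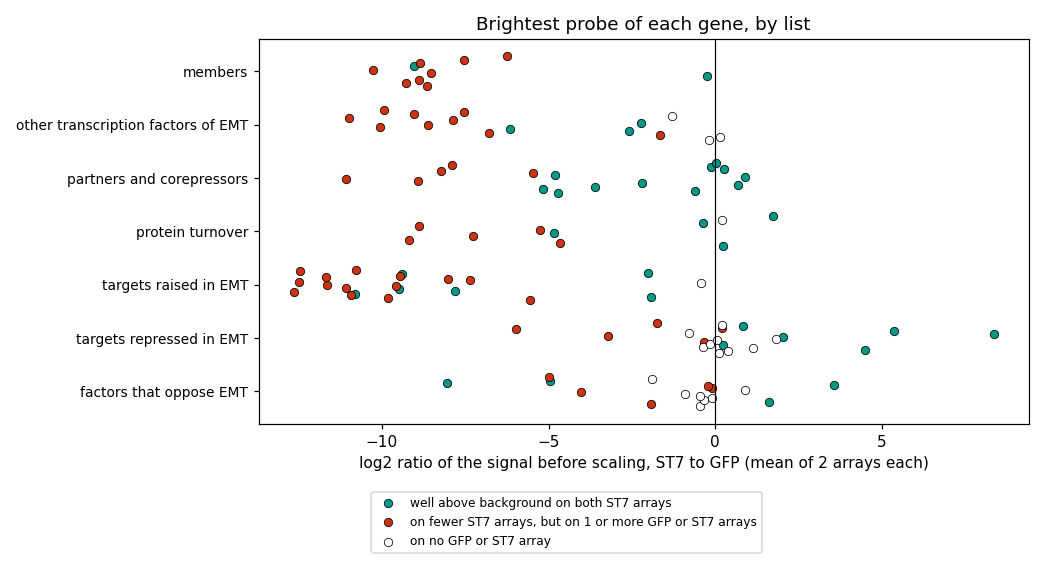
log2 ratio of the signal before scaling, ST7 to GFP (x axis, means of 2 arrays each), for the brightest probe of each gene in 7 lists (y axis); colours give the marks of the scanner software. 9 of the 10 members lie far to the left and Zeb2, shown by P596008 alone, lies near 0. Krt18, Dsp and Epcam lie at the right end among the genes repressed in the transition. On the scale of the 75th percentile shift Zeb2 is higher.

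One of these repressors has a promoter with the E-box core that Snail and Zeb proteins bind, CAGGTG or its reverse complement CACCTG. The RefSeq promoter table (GRCm38.p6) held 9 starts for 6 of the 10 genes, namely Snai1, Zeb2, Twist1, Twist2, Prrx1 and Foxc1. In the 250 bases before the start, read on both strands, the core was found at 1 of the 9, that of Snai1, beginning 126 bases before the start, and 17.2% of all 32851 promoters of the table hold it in this window. The window lies at chr2:167537945-167538194 on the plus strand, and capitals mark the core.
Snai1 promoter: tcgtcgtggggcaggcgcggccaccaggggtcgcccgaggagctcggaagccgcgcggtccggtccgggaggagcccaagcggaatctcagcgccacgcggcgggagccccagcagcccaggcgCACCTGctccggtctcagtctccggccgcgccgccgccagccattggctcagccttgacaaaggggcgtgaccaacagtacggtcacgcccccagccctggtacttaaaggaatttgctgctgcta
The match is a description of these letters only.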

How the data were processed

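RNA from GFP, LT7 and ST7 cells (2 replicates each) was labelled with Cy3 and hybridized to 6 arrays, read in 2 scans. The deposited scanner files hold the intensity of each spot, from which the authors' software (Agilent Feature Extraction 10.5.1.1) had subtracted background. The deposited value table holds log2 values after the authors' 75th percentile shift in GeneSpring and was used as an alternative. Here log2 of the processed signal was taken, 19 to 141 outlier spots per array were dropped, repeated spots averaged and each array's 75th percentile subtracted. One limma model (limma 3.58.1, R 4.3.3) was fitted to the 6 arrays; p-values were adjusted by Benjamini-Hochberg across the whole array, with 0.05 as the threshold. The fit was tested on simulated data. The precision is limited by the number of arrays. Dim groups were given a bound, as the mean of the brighter group over a limit on each array of the dimmer one. The limit was the probe's own value or the lowest signal marked well above background on that array, whichever was higher. Saturated probes were taken at their value.

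All 10 members were described with every probe; of other lists, up to 4 genes were taken by lowest adjusted p in LT7 or widest change in ST7 among measured genes, and genes named beyond these (Cdh1, Id2, Id4, Krt8, Vim, Ptprc, Grhl1, Csnk1e, Ctbp1 and others) were chosen after their values were seen. The members and lists were chosen with earlier results of these data known. Genes most like a member were the 3 nearest by root mean square difference over the 6 arrays. Lists were described by the brightest probe of each gene; Kdm1a was not found by name. All 11 transcript accessions of the member probes matched the same symbol in RefSeq. Alternatives were no scaling, 2 other scalings, spike-in scaling on 5 of 10 spike-in RNAs, normexp background correction (offset 50), the deposited values, other filters, a replicate block, fits on the compared groups alone and fits without each array. The array's genome build is not given in the sources used here.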

Additional observations from a re-analysis of the deposited data

How the results depend on the processing

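Between LT7 and GFP 0 member probes were called under every alternative run, including the fit without the ST7 arrays. The number of all probes called there, 108, was 59 without scaling, 67 with the percentile of probes bright on all 6 arrays, 5 with quantile normalization, 3 with spike-in scaling, 438 with normexp background correction, 264 without dim probes, 14 in the fit on the 2 groups alone, 0 with a replicate block, and 0 to 697 without single arrays (0 without either GFP array, 363 and 697 without LT7 replicates 1 and 2). Member probes past the study's criterion in LT7 numbered 0 with quantile normalization or normexp background correction, and 0 to 1 without single arrays. With spike-in scaling the positive changes turned: Snai1 -1.87, Snai2 -1.40, Zeb1 -1.75, Zeb2 P596008 -1.93, Twist2 -1.85, Prrx1 P335587 -1.94, Foxc2 -2.10 and Ets1 P194250 -2.15. The median probe of the array was itself at -2.05 there, and 11 member probes lay below it, as with the shift. The spike-in RNAs of LT7 replicate 1 were the brighter ones, at a mean log2 signal of 12.87. With normexp background correction Zeb2 P526372 (0.037) and Ets1 P258291 (0.022) turned, Ets1 P258291 (0.031) did with quantile normalization, and Ets1 P194250 (-0.028) without scaling. Without single arrays, the changes that turned ranged from -0.14 to 0.71 for Zeb2 P596008, -0.038 to 0.28 for Foxc2, -0.26 to 0.40 for Ets1 P194250 and -0.45 to 0.40 for Ets1 P258291.

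Between ST7 and GFP the member probes called numbered 13 to 16 without single arrays, and those past the study's criterion 14 to 15. All probes called were 55534, and 28195 without scaling, 35276 with quantile normalization, 13945 with spike-in scaling and 27859 without dim probes; between ST7 and LT7 these were 55574, 36322, 35001, 8293 and 28285. Changes that turned between ST7 and GFP were those of Zeb2 P121206 (-3.16 without scaling, -0.70 with the percentile of bright probes, -2.97 with spike-in scaling), Zeb2 P526372 (-2.49, -0.030 and -2.30), Ets1 P232830 (-4.31, -1.85 and -4.12, -0.53 with normexp background correction, and -0.044 to 0.22 without single arrays), Zeb2 P596008 (-0.23 without scaling, -0.041 with spike-in scaling), Prrx1 P335587 (0.78 with normexp background correction) and Ets1 P258291 (0.99 with it). Between ST7 and LT7 they were those of Zeb2 P121206 (-2.61, -0.23 and -0.30 under the same 3 scalings), Ets1 P232830 (-3.77, -1.39 and -1.46, and -0.11 with normexp background correction), Zeb2 P526372 (-1.31 without scaling), Zeb2 P596008 (-0.42 without scaling), Prrx1 P335587 (0.57 with normexp background correction) and Ets1 P258291 (0.97 with it). The deposited values and the fit with outlier spots kept turned no member change. The scalings differ in the level given to the dim ST7 arrays and, with spike-in RNAs, in that given to LT7 replicate 1. With spike-in scaling the median probe was at -0.49 in ST7 against GFP and at 1.60 in ST7 against LT7. Normexp replaces the background subtraction and so also alters dim probes. What turned each change was not tested.

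The labels do not say that a replicate number marks a shared passage or day, and each comparison has 2 pairs, so the numbers were not taken to pair the samples. The correlation of deviations between like-numbered arrays was 0.08 for GFP and LT7, 0.04 for GFP and ST7 and -0.02 for LT7 and ST7 over all probes, and 0.09, 0.33 and -0.03 over the 11081 probes bright on all arrays. A replicate block left 15 member probes called in each comparison with ST7 and 0 in LT7. Signal over background limits the ST7 values, where 14 of 17 member probes were not well above background on both arrays.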
